A study of Mus musculus with 3 samples.

Results

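The cells described here are roof and other non-sensory epithelium of the embryonic mouse cochlea, taken by gene content from 2 droplet single-cell RNA libraries of embryonic day 15 (E15). A cell with at least 500 genes and at most 20% mitochondrial UMIs (unique molecular identifiers, one per captured RNA molecule) was a member if it held a UMI of the epithelial genes Epcam or Cdh1 and a UMI of the roof genes Otx2, Lmx1a or Vmo1, and none of Sox2, Fst or Cdh5. This roof gate took 79 of 6375 E15 cells: 27 of 2838 in replicate 1 and 52 of 3537 in replicate 2. They were set against Sox2 epithelium, which is every E15 cell with Epcam or Cdh1 and with Sox2 (251 cells, 122 and 129), and against the 198 cells that the same roof gate took at postnatal day 7 (P7). The whole series holds 13637 cells that pass the same limits.

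Whole cochleae of wildtype C57BL/6J mice were used at both ages, with no genetic change or treatment in any group. The P7 group has 1 library and the E15 group 2. Nothing in the labels says whether the E15 libraries came from separate animals, so the spread behind the p-values may be technical. Between gates it is the spread of the gate difference across the E15 libraries, and between ages that of the E15 pair. Both are pooled in part over all genes. The tissue was digested with papain and thermolysin and sorted away from debris, and the roof cells were not purified. Level means CPM, a gene's UMIs per 1000000 UMIs summed over the cells of a group, and each pair of E15 values is replicate 1 and then replicate 2.

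The cochlear duct is a closed epithelial tube filled with potassium-rich endolymph. Its floor carries the prosensory domain that gives rise to the organ of Corti, marked by Sox2, and its roof becomes Reissner's membrane medially and the stria vascularis laterally. Otx2 is a homeodomain transcription factor of the developing roof, where it is needed for non-sensory fate. Lmx1a is a LIM homeodomain factor of non-sensory otic epithelium. Vmo1 encodes a secreted protein first described in the vitelline membrane of the hen's egg, and Oc90 encodes otoconin-90, the main matrix protein of otoconia, the crystals of the vestibular organs.

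The gate took 2.73% of cells at P7 (exact binomial 95% interval 2.36 to 3.13%), against 0.951% in E15 replicate 1 (0.628 to 1.38%) and 1.47% in replicate 2 (1.10 to 1.92%). Gate cells that held an Otx2 UMI made up 85 of 7262 cells at P7 (1.17%, 0.936 to 1.45%), against 14 of 2838 (0.493%, 0.270 to 0.826%) and 38 of 3537 (1.07%, 0.761 to 1.47%) at E15. Intervals of shares, and those given below for ratios of summed levels, cover counting error only. They leave out the spread between cells and between libraries. The members were deeper than the Sox2 epithelium, with a median of 19616 and 14823.5 UMIs per cell against 12843.5 and 8947, and their sums held 533141 and 1058737 UMIs against 1974147 and 1418642. A single replicate 2 member held 219941 UMIs, where the next in that library held 42728. It gave 20.8% of that library's member sum, 26.1% of the sum over its members with Otx2, and 104 of 303 Otx2 UMIs. It was not among the predicted doublets, and counts without it are given below. Median mitochondrial shares were 2.01 and 1.81% in members and 1.94 and 1.71% in Sox2 epithelium. The E15 libraries share 3 cell barcodes with each other, 1 of them in a member, and each shares 6 with P7. In bulk sums of this kind, fewer cells of a type and less RNA per cell cannot be told apart.

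Oc90, a listed marker of this epithelium that the gate did not use, was found in most members. The markers were chosen with earlier results of these data known, so its levels are description and no separate evidence for the label. Oc90 was at 10476 and 10563 CPM in members, against 43.6 and 30.3 CPM in Sox2 epithelium, and at 2.23 and 3.27 CPM in E15 cells with no Epcam or Cdh1 UMI. An Oc90 UMI was found in 19 of 27 members (70.4%) and 46 of 52 (88.5%), against 4.92 and 7.75% of Sox2 epithelium and 2.85 and 2.13% of the non-epithelial cells. After every cell was thinned to 5000 UMIs the shares were 68.0 and 85.1% in members, 2.56 and 4.55% in Sox2 epithelium and 0.646 and 0.771% in non-epithelial cells. The median depths above differ between the gates, and the thinned shares keep the same order.

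The roof genes overlapped in part. Otx2 and Lmx1a were found together in 11 and 21 members, Otx2 without Lmx1a in 3 and 17, Lmx1a without Otx2 and Vmo1 in 10 and 9, and Vmo1 alone in 3 and 5. Every member with Otx2 held an Oc90 UMI (14 of 14 and 38 of 38). Among members with Lmx1a only, 5 of 10 and 8 of 9 held one, and among those with Vmo1 alone none did (0 of 3 and 0 of 5). The 8 cells with Vmo1 alone go against the label: each entered with a single UMI of Epcam or Cdh1, each held at least 3 markers of mesenchyme, and their sums had 1496 and 387 CPM of Col3a1, a fibrillar collagen, and 296 and 467 CPM of Twist1, a mesenchymal transcription factor. They stay among the 79 members as the rule has it, and the counts below are also given without them.

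**Figure D1:**
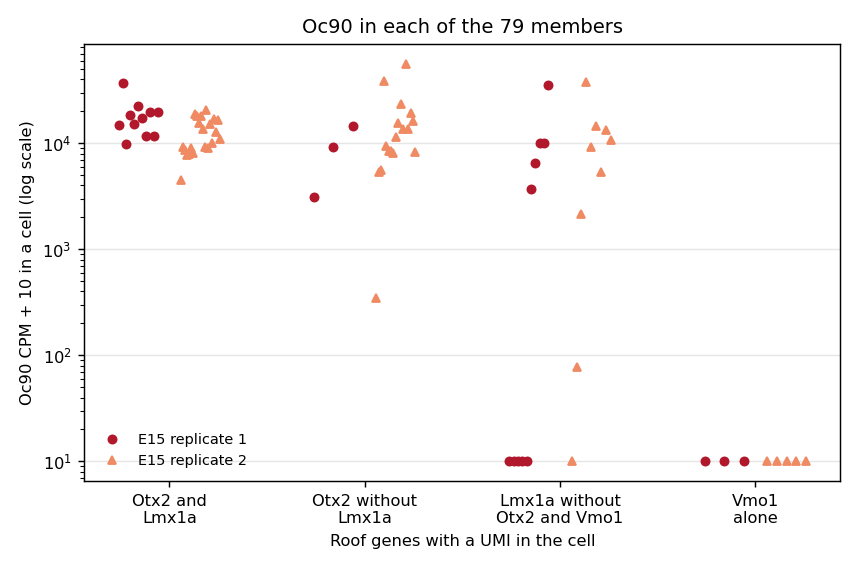
Oc90 level in each of the 79 members (CPM + 10 of the single cell, log axis), grouped by which roof genes have a UMI and split by E15 library. Members with Otx2 all lie above the floor, while the 8 cells with Vmo1 alone sit on it.

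The gate's edges were looser for weakly marked cells. Of members with exactly 1 roof-gene UMI (8 and 17 cells), 3 and 10 had at least 3 Oc90 UMIs, while of those with 2 or more (19 and 35 cells) 16 and 34 did. Just outside, 6 and 10 epithelial cells with no roof-gene UMI had at least 3 Oc90 UMIs. Cells that met the other terms but held Sox2, Fst or Cdh5 were outside with 1 such UMI in 2 and 1 cases and with more in 27 and 18.

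Promoters of a gate gene and of the gene most confined to the members are shown because Otx2 and goosecoid, the product of Gsc, both recognise the core TAATCC. Each is the 250 bases before the RefSeq start site on build GRCm38.p6, from the minus strand, 5′ to 3′, with the core in either orientation (TAATCC or GGATTA) in capitals. Vmo1 (chr11:70514617-70514866) holds 1 core, whose first base lies at -116 from the start site. Gsc (chr12:104473237-104473486) holds none and is therefore all in lower case.
Vmo1: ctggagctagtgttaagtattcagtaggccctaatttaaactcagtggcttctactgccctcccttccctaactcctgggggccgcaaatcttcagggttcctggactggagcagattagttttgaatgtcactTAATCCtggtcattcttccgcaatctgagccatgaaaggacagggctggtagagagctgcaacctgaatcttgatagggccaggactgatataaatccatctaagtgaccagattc
Gsc: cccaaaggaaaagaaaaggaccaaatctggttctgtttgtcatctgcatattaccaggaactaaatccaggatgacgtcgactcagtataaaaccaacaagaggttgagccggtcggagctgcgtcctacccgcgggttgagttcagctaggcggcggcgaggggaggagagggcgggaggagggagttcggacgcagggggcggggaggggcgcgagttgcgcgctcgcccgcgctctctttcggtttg

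No other motif was searched, and the core is a common one. It was in 6.25% of 32851 RefSeq promoters of this length, in 5.08% of 551 promoters of genes called higher in members and in 5.62% of 516 of genes called lower. A match is a run of letters and not a measured binding site. Of the members' other leading genes, Lmx1a, Ecel1, Lrp2, Dapl1, Pcdh20, Dsp, Bricd5, Fam20a and Wnt4 had no core in this window, and Otx2 had it in 1 of 4 promoters.

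Among genes at 50 CPM or more in both libraries, the genes of the gates left out, Gsc had the highest share of its E15 UMIs in members relative to all other cells, given here as a description of how the gate divides the cells: 90.1% of its E15 UMIs lay in these 79 cells. Oc90 followed with 84.7%, Ecel1, a membrane peptidase, with 84.2%, and Lrp2, the endocytic receptor megalin, with 83.1%. Dapl1 (81.5%), Pcdh20, a protocadherin (74.9%), Krt19, a keratin of simple epithelia (69.3%), Dsp, the desmosomal protein desmoplakin (64.7%), Bricd5 (60.7%) and Fam20a, a secretory-pathway pseudokinase (57.9%), complete the first 10. Krt19 was at 263 and 264 CPM in members against 17.2 and 17.6 CPM in Sox2 epithelium.

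Members and Sox2 epithelium were then compared across 9958 genes with edgeR's quasi-likelihood test, with the library as a block and the 8 genes of the gates left out. A gene was called where the Benjamini-Hochberg adjusted p was below 0.05 and the fitted change reached a fold of 2. Of the genes tested, 516 (5.18%) were higher in members and 516 (5.18%) lower, 1032 in all (10.4%), and 1030 of these had the same sign in both libraries. Because the groups were formed by roof genes and by Sox2, genes whose RNA accompanies those in single cells differ by the way the groups were made; the calls describe the groups and carry no separate evidence for the label. The fit has 1 residual degree of freedom and borrows its spread from all genes; DESeq2 called 323, and a test against a fold of 2 called 474. Without the 8 Vmo1-alone cells 1093 genes were called, and 961 of the 1032 were among them. Without the deepest member 1001 were called, 946 of them shared.

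Several of the genes most raised in members had no UMI, or few, in Sox2 epithelium. Fam20a was at 139 and 104 CPM in members and at 0 in both libraries of Sox2 epithelium, at least 131-fold higher (0 UMIs taken as a floor of 3 in the summed group); Pcdh20 was at 135 and 55.7 CPM against 0, at least 93.1-fold. DESeq2 did not keep the calls of this pair. Ecel1 stood at 403 and 341 CPM against 0.507 and 0.705 CPM, a ratio of summed levels of 614 (exact interval 169 to 5081), and a fitted log2 change of 9.10 ± 0.32 (SE). Gsc, a homeodomain factor, stood at 255 and 268 CPM against 1.01 and 0 CPM, a ratio of 448 (123 to 3708). Lrp2 was at 304 and 227 CPM against 1.01 and 0.705 CPM. For each of these genes the lower member library lay far above the higher Sox2 library.

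Further genes with a large rise are given in the same way. Kctd8 was at 249 and 197 CPM in members against 0 and 0.705 CPM in Sox2 epithelium. Dapl1 was at 76.9 and 107 CPM against 1.01 and 0 CPM (log2 7.04 ± 0.45), and Fibin, a secreted protein, at 111 and 86.9 CPM against 1.01 and 1.41 CPM. Slc6a15, a neutral amino acid transporter, was at 90.0 and 77.5 CPM against 2.03 and 0 CPM. Ptgds, prostaglandin D synthase, was at 126 and 150 CPM against 4.05 and 4.23 CPM, but also at 20.9 and 46.9 CPM in non-epithelial cells. Oc90 itself gave a log2 change of 8.13 ± 0.11 (adjusted p = 4.2e-117).

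The genes with the largest fall in members were high in Sox2 epithelium in both libraries. Tectb, encoding the tectorial membrane protein beta-tectorin, had no UMI in any member against 1012 and 829 CPM in Sox2 epithelium, at least 496-fold lower, and Tac1, the substance P precursor, none against 222 and 157 CPM, at least 103-fold lower. DESeq2 did not keep these calls. Tecta, for alpha-tectorin, was at 3.75 and 0 CPM in members against 359 and 354 CPM (log2 -8.02 ± 0.34). Fgf20, a prosensory growth factor, was at 0 and 1.89 CPM against 117 and 123 CPM, and Fgf10 at 0 and 3.78 CPM against 105 and 90.9 CPM. Ecrg4, Angpt1, Slitrk6, Igfbp3, Nrcam and Spock1 fell (log2 -4.73 to -7.00). Fabp7, a fatty acid binding protein of glia, was at 18.8 and 7.56 CPM against 575 and 522 CPM; once Sox2 cells with at least 3 glia markers were left out its log2 change was 0.69.

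**Figure D2:**
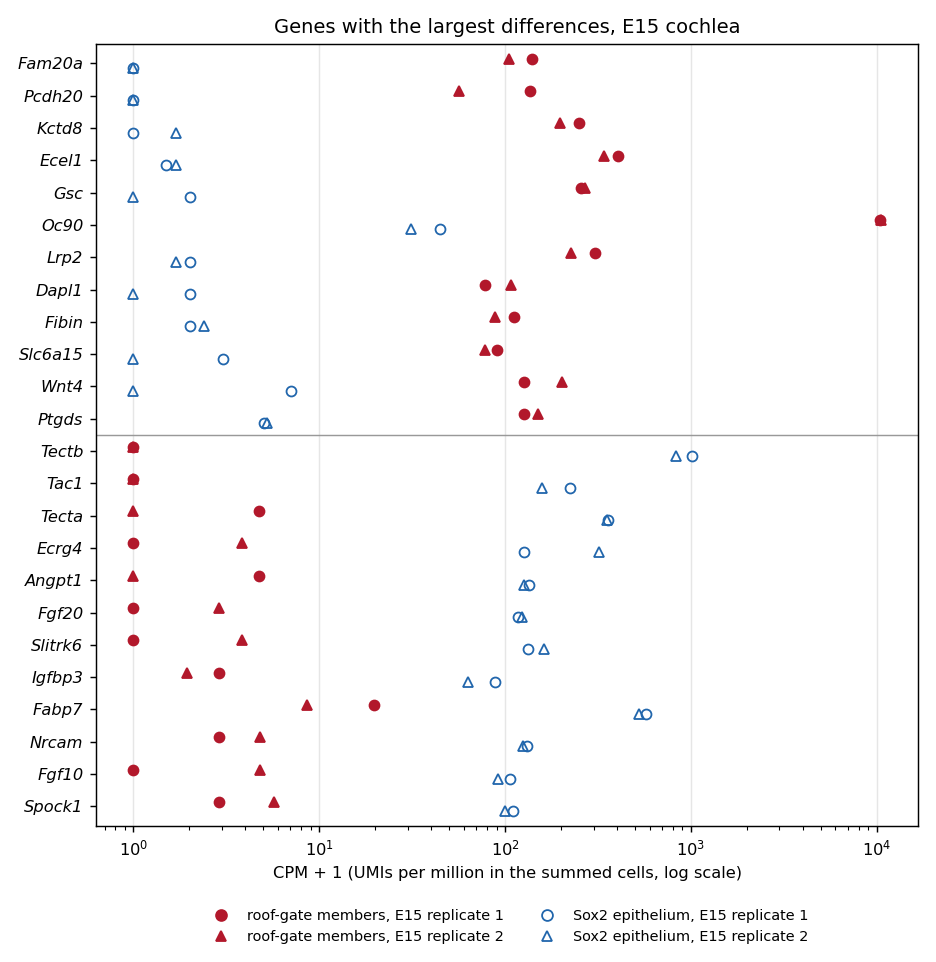
Levels (CPM + 1, log axis) of the 12 genes with the largest rise and the 12 with the largest fall in members, by E15 library. Filled red symbols are members and open blue symbols Sox2 epithelium, and in all 24 genes the symbols of the groups are apart.

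Transcription factors of the roof and the dorsal otocyst were mostly higher in members: of 13 listed, 8 could be tested, 6 rose and 2 fell, with a median log2 change of 3.34 against -0.01 over all genes tested. The background for this count and for each later list count at E15 is 5.18% higher and 5.18% lower of all 9958 genes tested. Hmx2, a homeobox gene of the dorsal otocyst, was at 65.6 and 38.7 CPM in members against 0 and 1.41 CPM in Sox2 epithelium (log2 6.26 ± 0.56), and its neighbour Hmx3 at 58.1 and 41.6 CPM against 0 and 1.41 CPM. Meis2 was at 84.4 and 109 CPM against 6.08 and 4.23 CPM, and Pax2, a paired-box factor of early otic development, at 75.0 and 70.8 CPM against 10.6 and 14.8 CPM. Otx1 rose by 5.04, a call that DESeq2 did not keep. Gata2 was at 189 and 111 CPM against 59.3 and 59.9 CPM, and its call was lost among members with Otx2. Sall1 (log2 -2.41) and Emx2 (-1.19) fell; the Emx2 call was lost under DESeq2 and in thinned cells.

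Of 15 genes of otoconial and apical matrices, 11 were tested, Oc90 and Sparcl1 rose and Tectb, Tecta and Otol1 fell (median log2 0.43). Otol1, the otolin collagen of otoconia, was at 22.5 and 34.0 CPM in members against 251 and 230 CPM in Sox2 epithelium (log2 -2.99 ± 0.20), so the pair of otoconial genes Oc90 and Otol1 had opposite signs. Sparcl1 was at 264 and 103 CPM against 18.2 and 31.0 CPM, but at 160 and 171 CPM in non-epithelial cells, and DESeq2 did not keep its call.

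Transporters of the endolymph lining were higher in members, at low levels. Of 23 genes of Reissner's membrane and the endolymphatic lining, 10 passed the filter on low counts, 6 rose and 1 fell, with a median log2 change of 2.62. Slc26a7, an anion exchanger, was at 24.4 and 34.0 CPM in members against 0 and 0.705 CPM in Sox2 epithelium (log2 6.16 ± 0.75), and Aqp5, a water channel, at 33.8 and 59.5 CPM against 3.04 and 2.82 CPM. Fxyd3 rose by 2.61. Esrrb, a nuclear receptor known from stria marginal cells, was at 16.9 and 12.3 CPM against 0 in both libraries, at least 15.6-fold higher. Slc12a2, the sodium-potassium-chloride cotransporter, was lower at 16.9 and 25.5 CPM against 48.6 and 63.4 CPM. DESeq2 did not keep the calls of Fxyd3, Esrrb and Slc12a2. Of 14 stria and lateral wall genes, 8 were tested, 4 rose (Esrrb, Hmx2, Gata2 and Dclk1) and Gata3 fell by 2.01, with a median of 1.02.

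Of 49 Wnt genes listed, 29 were tested, 3 rose (Wnt4, Dkk2 and Rspo3) and 5 fell (median log2 -0.24). The background over all genes tested was 5.18% in each direction, and nothing is read from the Wnt count. Wnt4 was at 126 and 202 CPM in members against 6.08 and 0 CPM in Sox2 epithelium, a ratio of 49.9 (28.1 to 97.7) that DESeq2 did not call. Dkk2, a secreted Wnt modulator, was at 43.1 and 60.4 CPM against 1.01 and 2.82 CPM (log2 4.75 ± 0.45), although non-epithelial cells had it at 45.5 and 38.3 CPM. Rspo3, a secreted Wnt agonist, was at 26.3 and 29.3 CPM against 1.01 and 3.52 CPM. Lgr5, an R-spondin receptor, was at 22.5 and 10.4 CPM against 125 and 114 CPM, and Wnt7a, Fzd4, Fzd9 and Fzd8 fell (log2 -1.21 to -2.85); DESeq2 did not keep the calls of these 4. Axin2, a general Wnt target, was at 26.3 and 30.2 CPM against 35.0 and 33.1 CPM and was not called.

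Nog, for the BMP antagonist noggin, was higher in members, while Bmp4 was not called. Of 32 BMP genes, 21 were tested, 4 rose and 4 fell (median log2 -0.15). Nog was at 18.8 and 26.4 CPM in members against 7.09 and 0.705 CPM in Sox2 epithelium (log2 2.52 ± 0.51). Bmp4 was at 95.7 and 43.4 CPM against 68.4 and 75.4 CPM (log2 -0.15 ± 0.22). Id4 rose by 1.36 and Bambi by 1.02, while Id2 (-1.32), Fstl1 (-1.87), Acvr2a (-1.89) and Chrdl1 (-2.71) fell. DESeq2 did not keep the calls of Nog, Id4, Bambi and Chrdl1, and the Bambi call was also lost without the Vmo1-alone cells.

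Of 24 FGF genes listed, 18 were tested, 3 rose (the receptor Fgfr2 and the ligands Fgf18 and Fgf9) and 9 fell, with a median log2 change of -0.89. Fgfr2 was at 137 and 119 CPM in members against 6.08 and 7.75 CPM in Sox2 epithelium (log2 4.22 ± 0.28, adjusted p = 2.8e-30). Fgf18 rose by 3.88 and Fgf9, at 75.0 and 110.5 CPM against 40.5 and 33.1 CPM, by 1.35 ± 0.22, calls that DESeq2 did not keep. Fgf9 was named after its values were seen. Fgf3 had no UMI in members against 10.6 and 9.87 CPM, at least 5.47-fold lower, also not kept by DESeq2. Etv1 (log2 -3.50), Etv5 (-2.75) and the feedback phosphatase Dusp6 (-1.52), all known targets of FGF signalling, fell. Fgf20, Fgf10, Etv4, Spry2 and Fgfrl1 also fell. Spry1, Spry4, Spred1, Spred2 and Il17rd of the same list were tested and not called. Whether FGF signalling differed between the groups was not tested. Fgfr1 was at 48.8 and 49.1 CPM against 60.8 and 64.1 CPM and was not called.

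Of 22 Notch genes, 14 were tested, 1 rose, 6 fell and 7 were not called (median log2 -0.83), and of 21 prosensory genes, 20 were tested, 0 rose and 17 fell by edgeR (median -2.90); of 18 with an unadjusted p under 0.05 none was higher, and DESeq2 called 12. Sox2, a prosensory factor, defined the group on the other side, so the second list has no weight of its own. Its genes Jag1, Hey2, Hey1 and Lfng are also among the Notch genes that fell. The Notch count is therefore not separate from it. Jag1, a Notch ligand, was at 9.38 and 17.0 CPM in members against 185 and 245 CPM in Sox2 epithelium (log2 -3.96 ± 0.24). Hes5, a Notch target, had no UMI against 21.8 and 18.3 CPM, at least 10.8-fold lower, and Hey2 and Hey1 fell by 4.72 and 3.40. Isl1, a LIM homeodomain factor of the sensory domain, was at 61.9 and 27.4 CPM against 769 and 752 CPM, and Hmga2 at 60.0 and 81.2 CPM against 808 and 792 CPM. Atoh1, the hair cell factor, had no UMI in members against 26.3 and 10.6 CPM, at least 10.5-fold lower; DESeq2 did not keep it. Lfng and Hes1 fell by 2.50 and 1.10, and Notch2 was higher at 48.8 and 62.3 CPM against 18.2 and 26.8 CPM, with DESeq2 keeping none of these 3. Hes1 was at -0.95, short of a fold of 2, without the deepest member. Of 12 hair cell genes 4 were tested and Atoh1 was called.

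Of the enzymes that break down retinoic acid, Cyp26b1 was lower in members in both libraries. The rise of Cyp26a1 lay mostly in replicate 2. Of 17 genes of the pathway, 9 were tested, 1 rose and 2 fell (median log2 -0.000733). Cyp26a1 was at 15.0 and 60.4 CPM in members against 9.62 and 12.7 CPM in Sox2 epithelium, a call that DESeq2 did not keep. Cyp26b1 was at 7.50 and 11.3 CPM against 121 and 100.1 CPM (log2 -3.41 ± 0.30). Aldh1a3, a retinoic acid synthesising enzyme, fell by 2.28, a call lost under DESeq2.

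Epithelial junction genes differed by member of the claudin family. Of 42 tight junction and epithelial genes, 32 were tested, 9 rose and 2 fell (median log2 0.38). Cldn8 was at 24.4 and 35.0 CPM in members against 0.507 and 0.705 CPM in Sox2 epithelium (log2 5.39 ± 0.67), and Cldn4 at 75.0 and 40.6 CPM against 23.8 and 11.3 CPM. Cldn3, named after its values were seen, was at 467 and 477 CPM against 193 and 179 CPM (log2 1.35 ± 0.12), a call lost in thinned cells. Cldn6, Cldn7 and Cldn9 were not called: Cldn6 was at 240.1 and 270.1 CPM against 203 and 205 CPM, Cldn7 at 233 and 277 CPM against 240.1 and 188 CPM, and Cldn9 at 186 and 215 CPM against 282 and 266 CPM. Cldn11 (log2 3.67) and Ovol2 rose and Cldn23 (-1.66) and Marveld3 (-1.39) fell. DESeq2 did not keep the calls of Cldn4 or of these 4. Of 8 gap junction genes, 3 were tested and Gjb2 (connexin 26) and Gja1 (connexin 43) fell; Gjb2 was at 78.8 and 26.4 CPM against 193 and 218 CPM, and DESeq2 kept neither call.

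Basement membrane genes that were called were mostly higher in members. Of 32 listed, 24 were tested, 10 rose and 2 fell, with a median log2 change of 0.68. Over all genes tested, 5.18% were higher and 5.18% lower, with a median of -0.01. Frem2, an extracellular matrix protein of epithelial basement membranes, was at 186 and 231 CPM in members against 17.2 and 20.4 CPM in Sox2 epithelium (log2 3.46 ± 0.21). Lamb1, a laminin chain, was at 227 and 193 CPM against 38.0 and 55.0 CPM, and Hspg2, for perlecan, at 80.7 and 62.3 CPM against 16.2 and 14.8 CPM. Non-epithelial cells held Lamb1 at 117 and 115 CPM. Frem1 and Col4a5 rose by 2.29 and 1.71, calls that DESeq2 did not keep. The integrin chains Itga8 (-2.17) and Itga6 (-1.84) fell.

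Guidance cues and neurotrophins made up a further list, in which 24 of 35 genes were tested, 4 rose and 7 fell (median log2 -0.32). Ntn1, for netrin-1, was at 13.1 and 35.9 CPM in members against 0.507 and 0.705 CPM in Sox2 epithelium (log2 5.06 ± 0.72), and the ephrin receptor gene Epha4 at 112 and 144 CPM against 30.9 and 32.4 CPM. Both cochlear neurotrophins were low in members: Ntf3 was at 13.1 and 27.4 CPM against 327 and 326 CPM (log2 -3.87 ± 0.20), and Bdnf at 9.38 and 4.72 CPM against 81.5 and 81.1 CPM. Tgfb2 was at 90.0 and 63.3 CPM against 589 and 508 CPM. Slit2 (log2 -1.65), Efnb2 (-1.61) and Sema3a (-1.54) fell, and DESeq2 did not keep the calls of Slit2 and Sema3a. Of 18 planar polarity and cilium genes, 10 were tested and 1, Celsr2, was called, lower by 1.18 and not kept by DESeq2.

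The shares of cycling cells had overlapping intervals in members and Sox2 epithelium. After thinning to 2000 UMIs, 2 or more UMIs of the cycle genes were found in 10 of 26 members (38.5%, exact interval 20.2 to 59.4%) and 22 of 50 (44.0%, 29.99 to 58.7%), against 49 of 120 (40.8%) and 54 of 126 (42.9%) Sox2 cells, whose intervals were 32.0 to 50.2% and 34.1 to 52.0%. None of the 20 S-phase genes tested was called by edgeR (median log2 0.05); 3 had an unadjusted p under 0.05, 1 of them higher, and DESeq2 called 0. Of 22 G2/M genes, 2 were called, Kif11 and Ccnb1, both lower and neither kept by DESeq2 (median -0.31). Of 8 cycle inhibitors tested, 2 were higher and 2 lower. Cdkn1c (p57) was at 1060 and 911 CPM in members against 264 and 302 CPM (log2 1.80 ± 0.11), whereas Cdkn1b (p27) was at 65.6 and 39.7 CPM against 433 and 480.0 CPM (log2 -3.21 ± 0.17). Btg1 fell by 1.57. Cdkn2b was at 15.0 and 12.3 CPM against 0.507 and 0 CPM, not kept by DESeq2.

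**Figure D3:**
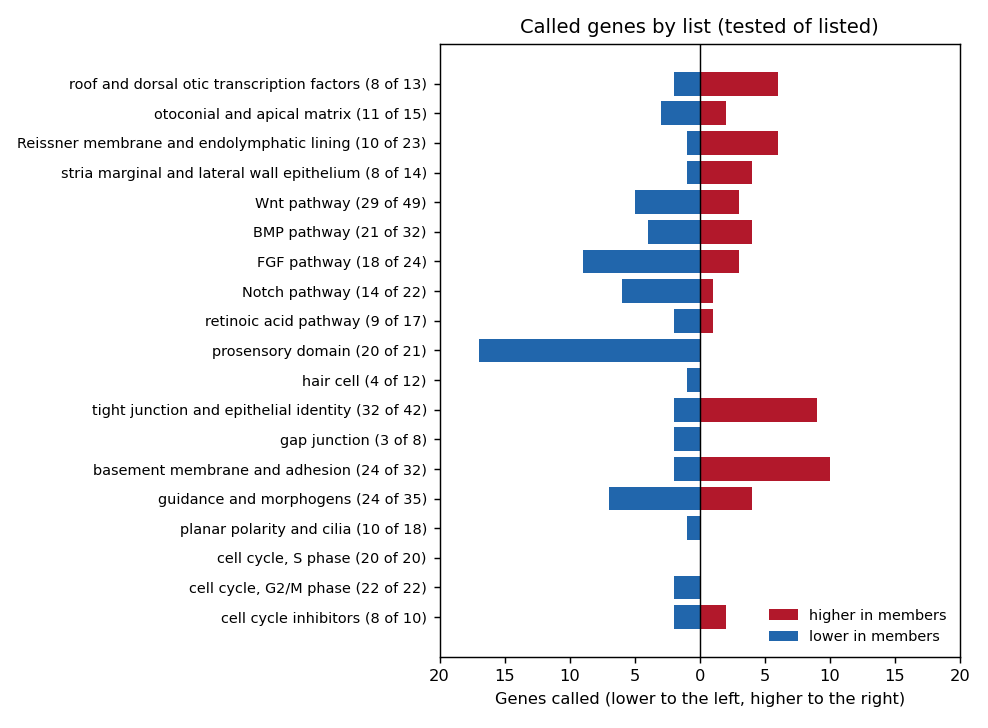
Number of genes per list called lower (left) and higher (right) in members than in Sox2 epithelium, with the genes tested of those listed beside each name. Over all 9958 genes tested, 5.18% were called higher and 5.18% lower. The prosensory bar reaches 17 to the left with none to the right, while the basement membrane list has 10 to the right and 2 to the left.

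Markers of other cell classes varied with the groups. The 11 mesenchyme markers summed to 580 and 372 CPM in members against 464 and 529 CPM in Sox2 epithelium, with 3 higher and 1 lower of 9 tested. Col1a2, Col3a1 and Twist1 rose by 1.12 to 1.53, but without the 8 Vmo1-alone cells they changed by -1.12, -1.25 and -1.69. Glia markers summed to 381 and 367 CPM against 1095 and 1051 CPM, with 5 of 8 tested lower and 1 higher. By cells the order was the other way: 25.9 and 36.5% of members held UMIs of at least 3 glia markers, against 23.0 and 14.7% of Sox2 epithelium, without thinning to 1 depth. Endothelium markers summed to 48.8 and 45.3 CPM against 16.7 and 26.1 CPM, with Emcn higher of 2 tested (log2 1.68, but -0.65 without the Vmo1-alone cells) and Pecam1, Kdr, Tie1, Tek and Esam at 0 in the members. The cartilage marker Cnmd was at 983 and 942 CPM in members against 165 and 164 CPM, but at 3.0 and 1.32 CPM in non-epithelial cells. Matn1 (of 5 cartilage markers tested), Dcx (of 3 neuron markers) and Rgs5 (of 3 pericyte markers) were also higher, and no macrophage marker could be tested. A single member of replicate 2 held at least 3 melanocyte markers, and the summed melanocyte level of that library was 243 CPM against 4.23 CPM. At least 3 cartilage markers were held by 24 and 45 members and by 99 and 95 Sox2 cells, and these cells were kept throughout. Leaving out cells with at least 3 markers of any other of these classes kept 12 and 27 members and 83 and 95 Sox2 cells. There 662 genes were called, with a member sum of only 12 cells. The part of such cells in each single result was not tested.

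The members were not uniform, and the roof genes divided them. Members with Otx2 (14 and 38 cells) and those with Lmx1a but neither Otx2 nor Vmo1 (10 and 9 cells) are given side by side without a test, since 3 of the 4 sums hold under 20 cells. Oc90 was at 14332 and 11941 CPM with Otx2 and at 5357 and 7940 CPM with Lmx1a only. Gsc (329 and 311 CPM against 182 and 156 CPM), Ecel1 (502 and 380 CPM against 333 and 291 CPM) and Lrp2 (309 and 237 CPM against 432 and 284 CPM) were present in both. Hmx2 was at 64.6 and 35.6 CPM with Otx2 and 98.5 and 78.0 CPM with Lmx1a only, and Fgfr2 at 123 and 121 CPM against 235 and 156 CPM. These 5 genes were thus found in both subsets and both libraries. The cells with Lmx1a only were mixed, however: 5 and 8 held an Oc90 UMI and 5 and 1 did not. All UMIs of Gsc, Ecel1 and Hmx2 in that subset lay in its cells with Oc90, and all but 1 of Lrp2, while Fgfr2 was found in both kinds.

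A second set of genes lay mostly in the cells with Otx2. Wnt4 was at 191 and 249 CPM with Otx2 against 15.2 and 28.4 CPM with Lmx1a only. Krt19 was at 391 and 309 CPM against 53.0 and 142 CPM, Dapl1 at 112 and 133 CPM against 22.7 and 7.09 CPM, and Fibin at 164 and 102 CPM against 22.7 and 42.5 CPM.

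Among the members, a further set lay mostly in the cells with Lmx1a only, and some of it is shared with Sox2 epithelium. Gata3 was at 73.5 and 70.0 CPM with Otx2 against 765 and 284 CPM with Lmx1a only, and Gata2 at 109 and 101 CPM against 485 and 227 CPM. Sox2 epithelium held Gata3 at 635 and 593 CPM and Gata2 at 59.3 and 59.9 CPM. Bmp4 was at 0 and 15.4 CPM with Otx2 against 386 and 213 CPM with Lmx1a only, and at 68.4 and 75.4 CPM in Sox2 epithelium. In replicate 1 all 51 Bmp4 UMIs of the Lmx1a-only subset lay in its 5 cells without Oc90, and none in the 5 with it. In replicate 2, 17 of its 30 Bmp4 UMIs lay in the 1 cell without Oc90 and 13 in 3 of the 8 with it. Gjb2 was at 0 and 1.19 CPM against 318 and 191 CPM, and Lgr5 at 0 and 4.75 CPM against 90.9 and 49.6 CPM. In Sox2 epithelium Gjb2 was at 193 and 218 CPM and Lgr5 at 125 and 113.5 CPM. Isl1 was at 11.8 and 9.49 CPM against 220.0 and 149 CPM, still under the 769 and 752 CPM of Sox2 epithelium. Tgfb2 was at 23.5 and 27.3 CPM against 288 and 298 CPM, under the 589 and 508 CPM of Sox2 epithelium. Of the Gata3 UMIs in the Lmx1a-only cells, 89 in replicate 1 came from the 5 cells without Oc90 and 12 from the 5 with it, against 17 from the 1 cell without and 23 from the 8 with it in replicate 2. Replicate 1 had no Gjb2, Lgr5 or Isl1 UMI in its Lmx1a-only cells with Oc90; replicate 2 had 27, 6 and 19 there.

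**Figure D4:**
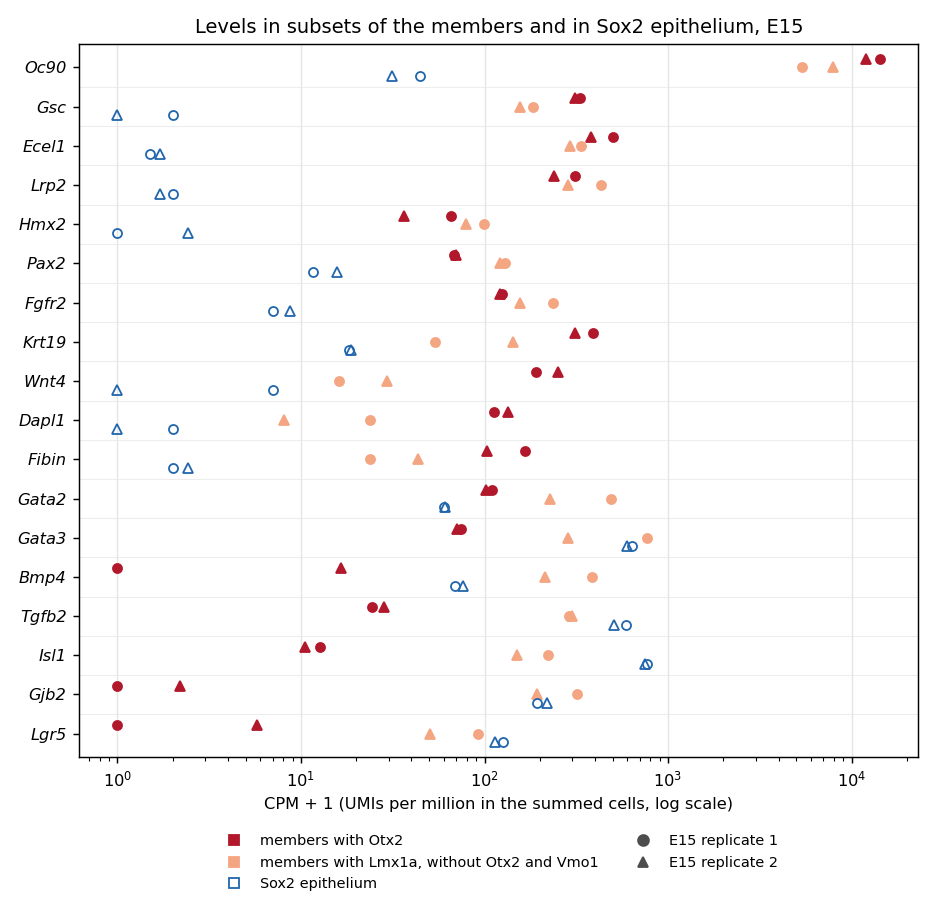
Levels (CPM + 1, log axis) of 18 genes in members with Otx2, members with Lmx1a but neither Otx2 nor Vmo1, and Sox2 epithelium, by E15 library. Wnt4 and Dapl1 are high with Otx2. Gata3, Bmp4, Gjb2 and Lgr5 are higher with Lmx1a only than with Otx2. Of these, Gata3, Gjb2 and Lgr5 are high in Sox2 epithelium too.

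The same roof gate was applied to the P7 library to see how this epithelium differs after birth. Age cannot be told apart from the library or the processing, since P7 has 1 library and its file header names Cell Ranger 3.1.0, against 6.1.2 in the E15 files. At P7 the gate was less pure: 58 of its 198 cells held Vmo1 alone, 49 of them with at least 3 mesenchyme markers, and the fit over the whole gate called 884 of 10493 genes higher (8.42%) and 434 lower (4.14%). Of gate cells with Otx2, 13 of 85 at P7 and 3 of 14 and 2 of 38 at E15 held at least 3 mesenchyme markers. Their part in single results was not tested. The values below are therefore those of cells with Otx2 (85 at P7, 14 and 38 at E15), a choice made after the data were seen. There 1691 of 9629 genes (17.6%) were called higher and 1292 (13.4%) lower at P7; the spread comes from the E15 pair alone and is taken to hold for P7, and 1 E15 sum has only 14 cells. Without the deepest E15 member 2667 genes were called in these cells, and 2562 of the 2983 were among them.

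The gate gene Vmo1 and several secreted or membrane proteins rose in these cells at P7. Vmo1, which these cells did not need in order to be chosen, was at 14595 CPM at P7 against 50.3 and 26.3 CPM at E15 (log2 8.84 ± 0.21), and at 5.90 CPM in P7 cells without Epcam or Cdh1. Crhbp, a binding protein of corticotropin-releasing hormone, was at 6882 CPM against 0 and 2.39 CPM, a ratio of 4044 (1120.0 to 33395). Tmem72 was at 359 CPM with no UMI at E15, at least 141-fold higher. Hhatl was at 579 CPM with no UMI at E15, at least 227-fold higher, and at 64.7 CPM in P7 non-epithelial cells. Dkk2 was at 2057 CPM against 38.5 and 66.9 CPM, Dapl1 at 966 CPM against 112 and 134 CPM, and Lrp2 at 1734 CPM against 311 and 239 CPM. Lmx1a was at 246 CPM against 104 and 77.7 CPM. Ptgds was at 3457 CPM against 166 and 111 CPM, but at 1311 CPM in the P7 non-epithelial cells.

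Of 13 endolymphatic lining genes tested in these cells, 9 were higher at P7 and 2 lower, with a median log2 change of 3.33, where 17.6% of all genes tested were higher and 13.4% lower. Slc26a7 was at 568 CPM at P7 against 35.5 and 33.4 CPM at E15 (log2 4.15 ± 0.25), and Slc26a4, for pendrin, at 95.3 CPM against 2.96 and 2.39 CPM. Atp1b1, a chain of the sodium pump, was higher too, at 824 CPM against 62.1 and 101 CPM. Aqp1 was at 166 CPM against 2.96 and 0 CPM. Aqp5 was lower at 3.55 CPM against 47.3 and 68.1 CPM, whereas over the whole gate it was higher (228 CPM against 34.0 and 59.9 CPM). Among junction genes Cldn8 was at 436 CPM against 29.6 and 33.4 CPM and Cldn6 at 17.2 CPM against 290 and 278 CPM. Of 23 basement membrane genes 6 rose and 2 fell, beside the same background of 17.6% and 13.4%, so nothing is read from that count. Col4a3 was at 91.2 CPM with no UMI at E15 and Col4a4 at 178 CPM against 0 and 1.19 CPM.

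Other leading E15 genes went both ways at P7 in the cells with Otx2. Pcdh20 (log2 2.86), Fibin (2.15), Slc6a15 (1.95) and Fam20a (1.53) were higher. Hmx3 (-1.56), Pax2 (-1.17) and Kctd8 (-0.94) were lower. Gsc was at 16.0 CPM at P7 against 331 and 313 CPM at E15 (log2 -4.22 ± 0.29), and Krt19 at 134 CPM against 393 and 311 CPM. Cdkn1c was at 127 CPM against 1340 and 1001 CPM. Oc90 was at 8209 CPM against 14429 and 12021 CPM (log2 -0.59 ± 0.15), short of a fold of 2, although over the whole gate its change of -1.30 was called. Wnt4 (0.99 ± 0.20) and Ecel1 (-0.34 ± 0.20) were not called, and neither was Fgfr2 at 127 CPM against 124 and 122 CPM. In the cells with Otx2 the 20 S-phase genes tested had a median log2 change of -2.92 and the 20 G2/M genes of -5.71. The median over all genes tested was -0.005. Cycling cells were counted only in the whole P7 gate, with its Vmo1-alone cells, and were 12 of 191 (6.28%, 3.29 to 10.7%). No such share was taken for P7 cells with Otx2.

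**Figure D5:**
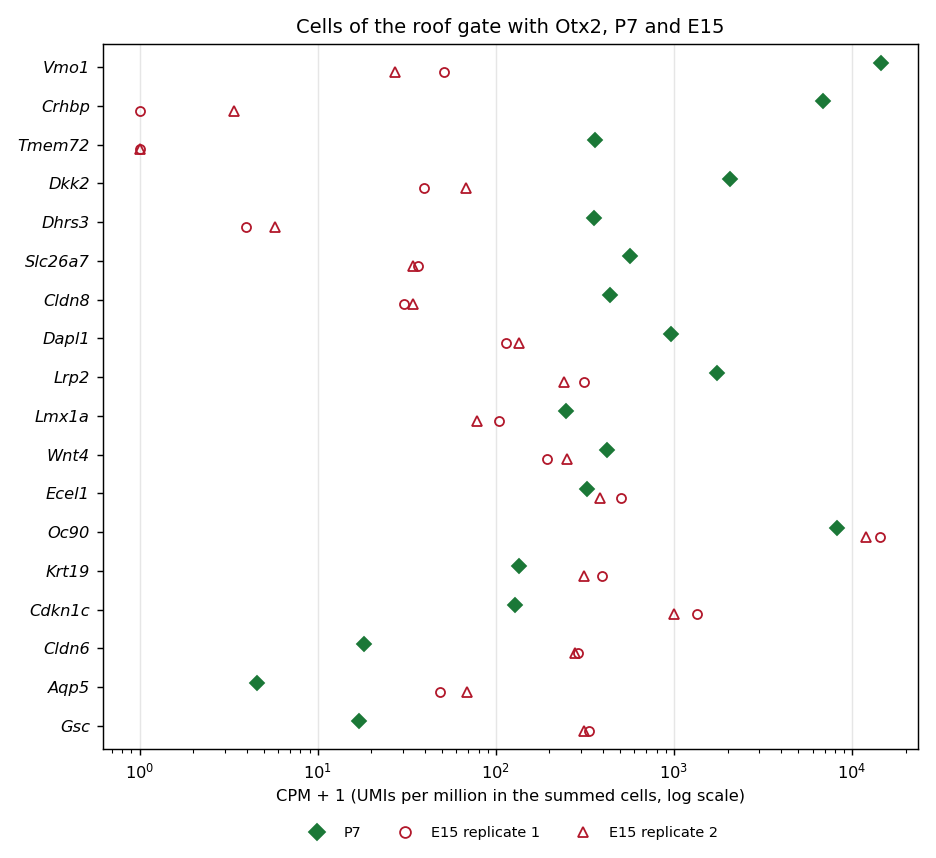
Levels (CPM + 1, log axis) of 18 genes in roof-gate cells with Otx2 at P7 (diamonds, 1 library) and E15 (open symbols, 2 libraries). Vmo1, Crhbp and Dkk2 lie to the right at P7 and Gsc, Aqp5 and Cldn6 to the left.

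Some age differences were of similar size, or the P7 level as high, in cells outside the gate. How many of the genes called between the ages behave in this way was not counted. The examples below include genes with the largest changes over the whole gate. The ages also rest on gene sets of unequal size, 28692 at P7 and 32285 at E15. Whether that plays a part in the calls was not tested. Otos, a secreted protein of the inner ear, was at 3392 CPM in the P7 gate but at 4889 CPM in P7 non-epithelial cells. Mrpl53 had a log2 change of -8.54 over the whole gate and of -8.76 in non-epithelial cells, Rnasek of -8.25 and -8.01, and Pgk1 of -4.42 and -4.16.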

How the data were processed

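Whole cochleae were profiled with the Chromium 3' v3 kit. The authors deposited unnormalized counts of UMIs by gene and barcode, made with Cell Ranger on GRCm38; the version is 6.1.2 per the submitters' processing notes, and 3.1.0 for P7 and 6.1.2 for E15 per the file headers. Library totals were 93829443 UMIs for P7 and 46530036 and 44304364 for E15, and the cells kept had medians of 11135, 14780.5 and 10889 UMIs.

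The members, gene lists and named genes were chosen with earlier results of these data known. Counts were summed per library and gate in Python 3.11.15 (numpy 2.4.6, scipy 1.17.1, pandas 2.3.3, anndata 0.12.19) and tested with edgeR 4.0.16 (limma 3.58.1, R 4.3.3) using TMM scaling, filterByExpr, the library as block between gates of the same library, and Benjamini-Hochberg adjustment; DESeq2 1.42.0 was an alternative. The test was checked on simulated counts. SE was derived from the log2 change and its F statistic. The age comparison used the 27734 gene IDs listed in all libraries, so its CPM values differ slightly.

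Doublets were scored with scanpy 1.11.5. Its automatic threshold marked 3 cells at P7 and 7 and 4 at E15, so all cells were kept. The 422, 64 and 100 cells with the highest scores were left out as an alternative. That number is a share of 0.008 of a library's cells for every 1000 cells kept in it. Named genes are up to 12 per direction with the largest change at 50 CPM or more, at most 8 called per list, list members not called, markers, and the 10 genes with the highest share in members. Only part of the genes named at E15 are also given at P7. Some genes within these limits are not reported here. Figures were drawn with matplotlib 3.10.9.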

Additional observations from a re-analysis of the deposited data

How the results depend on the processing

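Against Sox2 epithelium, 1032 genes were called; DESeq2 called 323, a test against a fold of 2 called 474, sums without cells holding at least 3 markers of another class, cartilage not counted, gave 662 from 12 and 27 members, and cells thinned to 5000 UMIs gave 490. The other settings gave 957 to 1106 calls, and without the replicate block, where the pairing is the shared library, 982 were called, 961 of them shared. Of 129 called leading and listed genes followed through the settings, DESeq2 did not call 56 and the fold test 40. In the sums without other classes 109 could be tested and 13 lost their call, and in the thinned sums 94 could be tested and 10 lost it. The cause was not tested.

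Signs turned in few named genes. Col3a1 was at log2 -0.50 under a stricter gate, -1.25 without the Vmo1-alone members, -1.14 in members with Otx2, -0.88 in those without the deepest member, -0.44 without replicate 1 and 2.59 without replicate 2. In the Vmo1-alone, Otx2 and Otx2 without the deepest member settings Col1a2 was at -1.12, -0.84 and -0.79, Twist1 at -1.69, -1.38 and -1.32, and Emcn at -0.65, -0.33 and -0.11. Fabp7 was at 0.69 against Sox2 epithelium without glia markers. Leaving out a replicate leaves no residual degrees of freedom, so those values carry no test.

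For P7 against E15 the gate gave 1318 calls; no filter gave 3523, the fold test 217, a 10% mitochondrial limit 2779, doublets removed 3039, a stricter gate 3008, no Vmo1-alone cells 3166, no deepest E15 member 2870, and cells with Otx2 2983, or 2667 without that member, where Rspo3 was at -2.14 and -2.16 and Aqp5 at -3.95 and -4.11. No paired analysis was possible for this comparison because P7 has 1 library and the ages share fewer than 2 replicate numbers. The stricter gate took 1.67% of P7 cells and 0.990% of E15 replicate 2. The settings without Vmo1-alone cells, with Otx2 only, without glia markers and without the deepest member were chosen after seeing the data. The planned test of members with against without Otx2 was not run, since 3 of 4 sums hold under 20 cells. With 79 members, genes below about 10 CPM rest on few UMIs.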
